A study of Homo sapiens with 4 samples.

Results

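The comparison set gene expression after induction of SRRM4 against an empty vector in HEK293, an established human embryonic kidney cell line. SRRM4 is a serine/arginine-rich splicing protein of neurons. Genes were compared when their mean level over both libraries reached 1 cRPKM, a read density corrected for gene length and sequencing depth, and SRRM4 itself was left out. This kept 12644 of 40188 genes with a value, of which 11539 were protein-coding. Both lines carried a stably integrated, doxycycline-inducible construct, either SRRM4 or no insert, and both were exposed to doxycycline at 1 µg/mL for 24 h, so the controls received the drug too. MSI1 and SRRM3 lines of the same design, with the same exposure, gave the other libraries of the series. Each group was 1 library of polyA-selected RNA. Without replicates there is no p-value anywhere below, and a difference between lines cannot be told apart from an effect of the transgene. In bulk RNA, fewer cells expressing a gene and less RNA of it per cell cannot be told apart either.

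SRRM4 promotes the inclusion of very short exons, called microexons, in neuronal messenger RNAs. One of its known targets is REST, a zinc finger repressor that binds a DNA element named RE1 and keeps neuronal genes silent in other cells. The neuronal splice form of REST ends early and represses poorly. The values used here are per gene, so they give transcript abundance and say nothing of which exons were included.

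Counted reads numbered 62083851 with the empty vector and 60288244 with SRRM4, and 63003121 and 62892722 in the MSI1 and SRRM3 libraries. SRRM4 was at 0.39 cRPKM in the empty vector, 0.01 in MSI1, 0.18 in SRRM3 and 63.78 in the SRRM4 library, from 201, 6, 95 and 32240 reads. Only the library labelled SRRM4 was high, with 165-fold the depth-scaled count of the empty vector (95% counting interval 144 to 191). A gene-level value does not separate the transgene from the gene's own locus on chromosome 12 (GRCh38, 118981495 to 119163051). The related SRRM1 and SRRM2 were at 46.58 and 90.94 cRPKM with the empty vector and at 44.38 and 94.61 with SRRM4. SRRM3, the closest paralog, was at 0.49 cRPKM with the empty vector and 1.39 with SRRM4. Keratins and vimentin, which HEK293 cells are known to express, were high in both libraries. KRT8 was at 292.95 and 293.36 cRPKM and VIM at 973.50 and 1016.79 in the empty vector and SRRM4. Not all 13 genes on the epithelial list were high. CDH1 was at 1.39 and 1.10 cRPKM, and 2 of the 13 stayed under 1 cRPKM in every library. Of 10 fibroblast and 10 blood cell markers, 9 in each list stayed under 1 cRPKM in every library. Their summed levels were 4.26 and 4.36 cRPKM for fibroblasts, and 5.72 and 5.27 for blood, in the empty vector and SRRM4.

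The transcripts that were higher after SRRM4 induction included 5 vesicle fusion, 3 synaptic vesicle and 6 dense-core granule genes. They come from gene lists chosen with earlier results of these data known. The 4 protein-coding genes that were lower were antiviral interferon effectors. A gene counted as higher or lower when its log2 cRPKM ratio, with 0.5 added to each level, was at least 1 in size and the counting interval of its read ratio excluded 1. By this rule 43 genes (0.34%) were higher and 7 (0.0554%) were lower, of which 35 and 4 were protein-coding. The median log2 ratio over all compared genes was 0.00, with the 5th and 95th percentiles at -0.26 and 0.26. The intervals come from an exact conditional test of the read counts. They cover counting error only, and are too narrow even for that where reads are not independent molecules. They compare these libraries rather than the conditions. A further 49 genes passed the 2-fold size with an interval that held 1, none with more than 17 reads in either library.

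**Figure D1:**
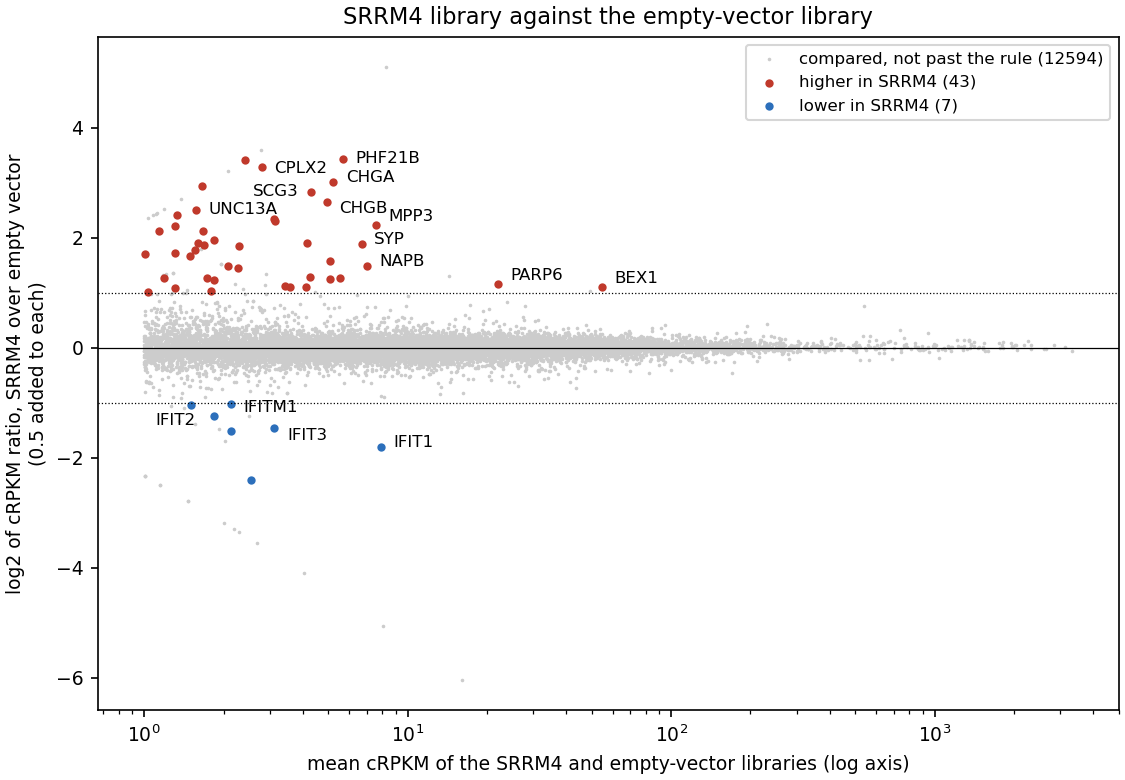
Each point is 1 of the 12644 compared genes. The horizontal axis is its mean cRPKM over the SRRM4 and empty-vector libraries on a log scale, and the vertical axis is the log2 ratio of its levels with 0.5 added to each; dotted lines mark 2-fold. Red points are the 43 higher genes, mostly at low mean levels and reaching BEX1 on the right, and blue points are the 7 lower genes, led in level by IFIT1. The grey points far from 0 rest on at most 17 reads.

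Most of the higher genes were close to silent in the control. The 35 protein-coding ones had a median of 0.72 cRPKM with the empty vector and 4.90 with SRRM4, with a median read ratio of 5.46. Of these, 21 were at least 4-fold and 7 at least 10-fold higher. Because the level filter used both libraries, genes under 1 cRPKM in the empty vector could enter only through SRRM4. There were 145 such genes and 28 of them (19.3%) were called higher. Among the 12499 genes with at least 1 cRPKM in the empty vector, 15 (0.12%) were higher, of which 13 were protein-coding. Among the 12754 genes with at least 1 cRPKM in the MSI1 library, which entered neither side of the comparison, 25 were higher. Of these 25, 24 are among the 43 genes called higher above.

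Transcripts of 5 genes of the vesicle fusion machinery ranged from 51.2-fold to 2.61-fold higher. Complexin 2 (CPLX2), which binds the assembled SNARE complex, was at 0.11 cRPKM in the empty vector, 0.11 in MSI1, 9.54 in SRRM3 and 5.48 in SRRM4. It was low in both libraries without an induced SRRM protein, and its reads were 51.2-fold higher in SRRM4 than in the empty vector (36.3 to 74.7, from 33 and 1642 reads). UNC13A, the priming factor that makes docked vesicles ready to fuse, was at 0.12 cRPKM in the empty vector, 0.16 in MSI1, 3.23 in SRRM3 and 3.02 in SRRM4. Its ratio was 24.3 (19.3 to 31.1), and again both libraries with an SRRM protein were the high ones. CPLX1, the second brain complexin, was at 0.39, 0.54, 2.57 and 2.82 cRPKM in the same order, with a ratio of 7.33. Members already present at a few cRPKM were higher by less. This order is partly built in, since a gene almost silent in the control reached the level filter only with a large ratio. NAPB, the neuronal SNAP that helps to take SNARE complexes apart, was at 3.44 cRPKM in the empty vector, 3.74 in MSI1, 8.32 in SRRM3 and 10.55 in SRRM4, a ratio of 3.06 (2.83 to 3.32). Syntaxin 1A (STX1A), a SNARE of the plasma membrane, was at 2.81, 3.83, 6.4 and 7.33 cRPKM, a ratio of 2.61.

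The list of 42 fusion genes shows how uneven this was. Like every gene list below, it was chosen with earlier results of these data known. Counts of list members therefore describe these libraries and are not independent evidence. Only 22 reached the level filter, of which the 5 genes above were higher and none was lower, and the median log2 ratio over these 22 was 0.05. Of all compared genes, 0.34% were higher. CPLX2, UNC13A and CPLX1 were under 1 cRPKM in the empty vector, a class in which 19.3% of all genes were higher. NAPB and STX1A were above that level, where the share was 0.12%. General counterparts of the neuronal fusion genes stayed close to 0. NSF, the ATPase that takes SNAREs apart in all cells, had a log2 ratio of 0.02, NAPA 0.07, SNAP23 -0.13 and UNC13B -0.04. Counting intervals lay above 1 for 10 of the 22, against 23.2% of all compared genes, and below 1 for 4, against 25.1%. Among list members under the filter, SNAP25, the third neuronal SNARE, was at 0.08 cRPKM with the empty vector and 1.35 with SRRM4, from 2 and 31 reads, with a counting interval of the ratio from 4.06 to 138. BSN, a scaffold of the active zone, was at 0.48 and 1.38 cRPKM, and SYT1, the calcium sensor of fast release, at 0.24 and 0.17.

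Genes for synaptic vesicle proteins followed the same division. Synaptophysin (SYP), an abundant vesicle membrane protein, was at 2.55 cRPKM in the empty vector, 2.81 in MSI1, 14.49 in SRRM3 and 10.84 in SRRM4. The empty vector and MSI1 were alike and low, and the ratio of SRRM4 to the empty vector was 4.26 (3.81 to 4.77). Synapsin 1 (SYN1), which tethers vesicles to actin, was at 0.21, 0.36, 2.28 and 1.81 cRPKM, a ratio of 8.70 (6.31 to 12.3). AP3B2, the neuronal subunit of the AP-3 sorting coat, was at 1.46, 2.21, 7.06 and 6.84 cRPKM, a ratio of 4.67. These 3 were the higher genes among 15 list members compared, against 0.34% of all compared genes, and none was lower. SYP and AP3B2 are among the 14 members with at least 1 cRPKM in the empty vector, a class in which 0.12% of all genes were higher. The other 12 lay between a log2 ratio of -0.07 (AMPH) and 0.35 (DNM1), and the median of the 15 was 0.06. Another 14 of the 29 members, among them the vesicular glutamate transporters, did not reach the filter.

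Dense-core granules store peptide hormones, and 6 of 13 compared members of their list were higher, against 0.34% of all compared genes. Of those 6, 5 were under 1 cRPKM in the empty vector, a class in which 19.3% of all genes were higher. Chromogranin A (CHGA), an acidic protein that helps to form the granule core, was at 0.76 cRPKM in the empty vector, 1.39 in MSI1, 20.81 in SRRM3 and 9.70 in SRRM4. Its ratio was 12.8 (10.4 to 15.9), and SRRM3 rather than SRRM4 held the highest level. Secretogranin 3 (SCG3) was at 0.68, 0.86, 9.04 and 7.94 cRPKM, a ratio of 11.7, and chromogranin B (CHGB) was at 1.00, 1.02, 11.02 and 8.88 cRPKM, a ratio of 8.84. The prohormone convertase PCSK1, which cuts hormone precursors inside the granule, was at 0.72, 1.27, 10.07 and 5.56 cRPKM, a ratio of 7.73. The neuropeptide precursor VGF was at 0.44, 0.90, 2.37 and 2.93 cRPKM, a ratio of 6.66, and RUNDC3A at 0.31, 0.57, 4.14 and 3.04, a ratio of 9.66. For VGF the SRRM4 library was the highest of the 4.

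Granule genes that were abundant in the control differed little. Carboxypeptidase E (CPE), which trims the peptides that convertases release, was at 77.54 cRPKM with the empty vector and 74.89 with SRRM4, and the amidating enzyme PAM at 56.54 and 55.92. PCSK1N, an inhibitor of PCSK1, had a log2 ratio of -0.19, and the peptides GAL and NPY had -0.02 and 0.07. NPPB, a natriuretic peptide, was just under the rule at a log2 ratio of 0.99, with 0.77 cRPKM in the empty vector, 0.81 in MSI1, 0.25 in SRRM3 and 2.03 in SRRM4 and a read ratio of 2.62 (1.71 to 4.11). The list's median log2 ratio was 0.99 over the 13 compared members, where NPPB is the middle one, -0.02 over the 7 with at least 1 cRPKM in the empty vector, 0.20 over the 22 with a read in either library, and 0.03 over those with at least 1 cRPKM in MSI1. Below the filter, PTPRN, a granule membrane protein, was at 0.14 cRPKM in the empty vector, 1.29 in MSI1, 2.41 in SRRM3 and 1.05 in SRRM4. Its ratio was 7.40, and here the MSI1 library was on the high side too. SCG2 was at 0.18, 0.13, 1.26 and 0.80 cRPKM, a ratio of 4.49 (2.96 to 7.03).

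Genes known as REST targets accounted for 17 of the 35 higher protein-coding genes. The list of such targets was, like the other lists, chosen with earlier results of these data known. Its count describes these libraries and is not independent evidence of direction. Of 54 members other than SRRM4, 31 were compared, 17 were higher and none was lower, and the median log2 ratio was 1.70. Of the 16 compared members with at least 1 cRPKM in the empty vector, 3 were higher (CHGB, SYP and AP3B2), against 0.12% of all such genes. Of the 15 members under that level, 14 were higher, against 19.3%. Over the 51 members with a read in either library the median was 0.70, and intervals lay above 1 for 39 and below 1 for 1 of them, against 13.7% and 14.5% of all genes with a read. The member with an interval below 1 was the axonal kinesin KIF1A, at 19.07 and 17.27 cRPKM. Several targets already expressed in the control had ratios under 2, such as STMN3, a microtubule regulator, at 20.62 and 35.14 cRPKM (ratio 1.70), and the scaffold MAPK8IP2 at 15.39 and 25.32 (ratio 1.65). NEFM, a neurofilament, had a log2 ratio of 0.06.

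**Figure D2:**
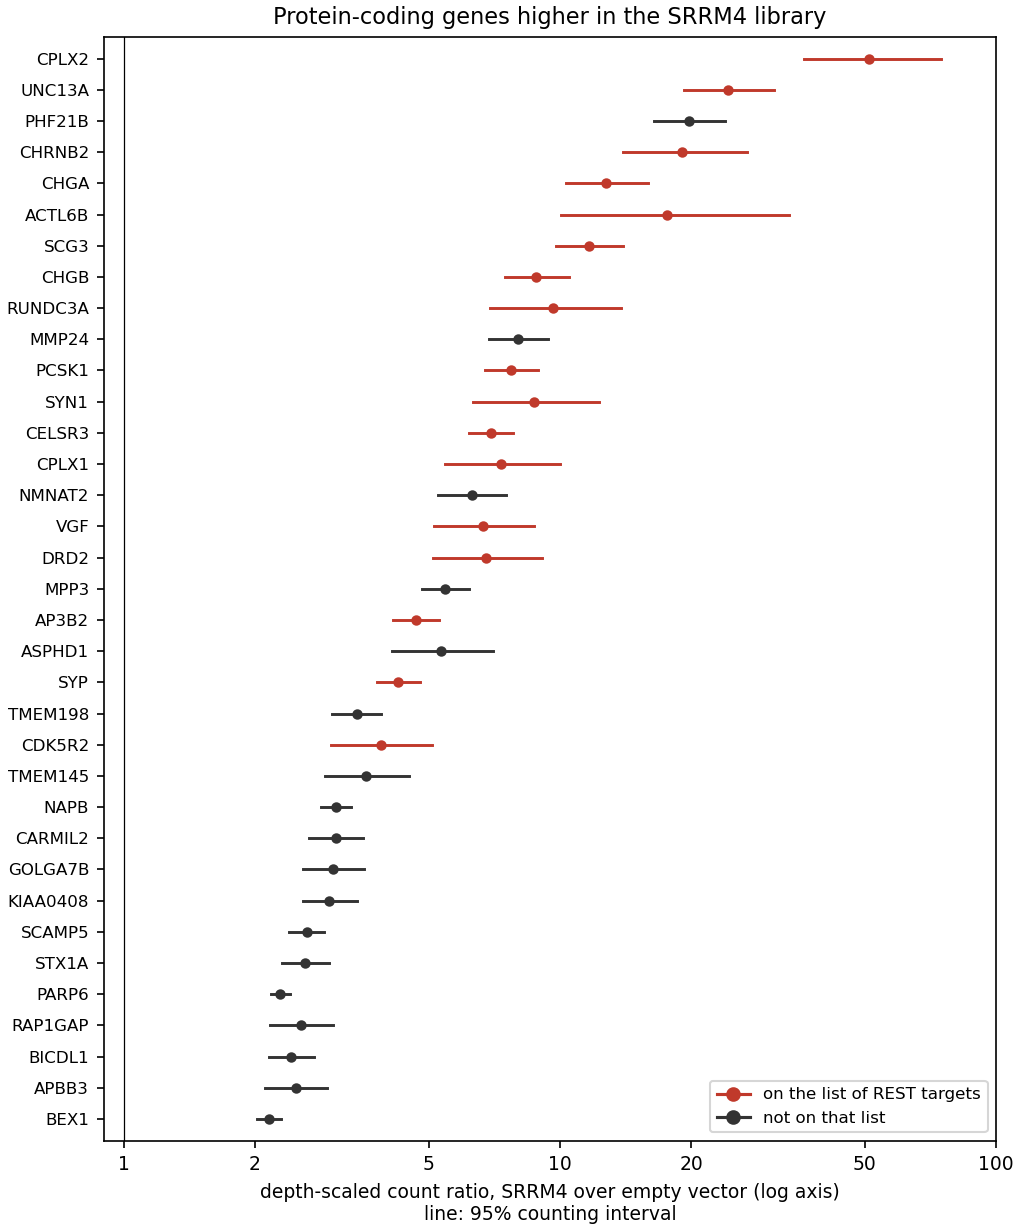
Depth-scaled read ratio of SRRM4 to the empty vector for the 35 higher protein-coding genes, on a log axis, with lines for the 95% counting interval. Red marks members of the REST target list and black the other 18; most of the upper rows are red, and the lower rows, from TMEM145 at 3.59 down to BEX1 at 2.16, are black.

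REST itself was at 7.93 cRPKM in the empty vector, 7.74 in MSI1, 7.13 in SRRM3 and 6.50 in SRRM4, a log2 ratio of -0.27 and a read ratio of 0.819 (0.779 to 0.861). It was thus lowest in the SRRM4 library, by less than 1.5-fold. Among 28 genes for REST and its corepressors, all of them compared, PHF21B was higher and the other 27 lay between log2 ratios of -0.27 and 0.24. PHF21B, a relative of the corepressor subunit PHF21A, was at 0.55 cRPKM in the empty vector, 0.97 in MSI1, 17.13 in SRRM3 and 10.80 in SRRM4, a ratio of 19.7 (16.5 to 23.9). PHF21A was at 5.76 and 6.87 cRPKM. The scaffold RCOR1, the demethylase KDM1A and the deacetylase HDAC1 had log2 ratios of 0.01, 0.06 and 0.09.

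RefSeq promoters (GRCh38.p14, 250 bases before to 50 after a start site, on the gene's strand) were available for 24 of the 35 higher protein-coding genes. They were searched on both strands for the RE1 core, which is CAGCACC, any 2 bases and GGACAG, and for either arm alone, TCAGCACC or GGACAGC, each of which overlaps the core. A gene with several start sites has more than 1 window. The exact core was found in 16 of 27305 genes with a promoter (0.0586%), in 2 of 9484 compared protein-coding genes, SYN1 and OGDHL, and in 1 of the 24 higher genes. With 1 mismatch allowed it was found in 21 of the 9484 (0.221%) and in 3 of the 24. Either arm was found in 10.6% of the 9484 and in 8 of the 24 (33.3%), which were ACTL6B, CELSR3, PCSK1, SCAMP5, SCG3, SYN1, UNC13A and VGF. The 3 stretches with the core are shown because SYN1, SCAMP5 and VGF are among the higher genes; capitals mark the core, on either strand. That of SYN1 (chrX:47620059-47620103, minus strand) matches exactly, and its core begins 231 bases before the start site. That of SCAMP5 (chr15:74995373-74995417, plus strand) has 1 mismatch and a core that begins 175 bases before it, and that of VGF (chr7:101165561-101165575, minus strand) has 1 mismatch and crosses the start site.
SYN1: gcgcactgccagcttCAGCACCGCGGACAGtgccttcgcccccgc
SCAMP5: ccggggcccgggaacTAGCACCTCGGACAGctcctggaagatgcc
VGF: CTGTCCAGCGTGCTG
A match is a description of the letters. Transcripts of the higher genes were richer in GC, and the part of base composition in these shares was not tested. RE1 elements outside these windows were not searched.

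Receptors, chromatin and cytoskeleton each gave a few higher genes. CHRNB2, a subunit of neuronal nicotinic acetylcholine receptors, was at 0.11 cRPKM in the empty vector, 0.10 in MSI1, 3.40 in SRRM3 and 2.17 in SRRM4, a ratio of 19.1 (13.9 to 26.8). The dopamine receptor DRD2 was at 0.34, 0.24, 1.89 and 2.27 cRPKM, a ratio of 6.77. They were the only 2 higher genes among 23 compared channels and receptors, against 0.34% of all compared genes, and both were under 1 cRPKM in the empty vector, where the share was 19.3%. The list's median log2 ratio was 0.15. Of the 90 genes on that list, 63 stayed under 1 cRPKM in every library. GABRD, CACNB1 and SCN3B, subunits of GABA-A receptors, calcium channels and sodium channels, came next with log2 ratios of 0.84, 0.76 and 0.63.

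ACTL6B, the actin-like subunit that replaces ACTL6A in the neuronal BAF chromatin remodeller, was at 0.14 cRPKM in the empty vector, 0.14 in MSI1, 4.52 in SRRM3 and 2.47 in SRRM4, a ratio of 17.6 (10.1 to 33.5, from 13 and 222 reads). Its counterpart ACTL6A was at 53.57 and 55.80 cRPKM, so ACTL6B remained the minor form. None of the other 19 BAF genes passed the rule, and they lay between log2 ratios of -0.10 (SMARCA2) and 0.32 (DPF3). In the cytoskeleton list of 35 compared genes, ACTL6B and CDK5R2, an activator of the neuronal kinase CDK5, were higher, against 0.34% of all compared genes. Both were under 1 cRPKM in the empty vector, where the share was 19.3%. CDK5R2 was at 0.49, 0.84, 3.38 and 1.89 cRPKM, a ratio of 3.88. The microtubule regulator CRMP1 was just under the rule at a log2 ratio of 0.97, and NEFL and MAP2 had -0.23 and -0.22. No transcription factor of neuronal fate among 14 compared was higher or lower, and their median was -0.06. The lowest of them were BHLHE22 at -0.46 and INSM1 at -0.37.

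MMP24, a membrane-anchored metalloproteinase, was at 0.69 cRPKM in the empty vector, 0.85 in MSI1, 5.29 in SRRM3 and 5.55 in SRRM4, a ratio of 8.03. The cadherin CELSR3, which guides axons, was at 0.46, 0.64, 2.94 and 3.21 cRPKM, a ratio of 6.95, and is on the REST list, while MMP24 is on none of the lists. NMNAT2, an enzyme of NAD synthesis in axons, was at 0.43, 0.71, 3.51 and 2.70 cRPKM, a ratio of 6.28. The scaffold MPP3 was at 2.34, 2.83, 9.02 and 12.79 cRPKM, a ratio of 5.46, with SRRM4 highest. ASPHD1, TMEM198 and TMEM145 had ratios of 5.34, 3.42 and 3.59. CARMIL2, a regulator of actin capping, GOLGA7B, KIAA0408, the secretory carrier protein SCAMP5, RAP1GAP and APBB3 had ratios from 2.48 to 3.07.

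The most abundant higher genes had the smallest ratios and the narrowest intervals. The order of ratios is partly built in, since genes almost silent in the control reached the level filter only with large ratios. PARP6, a mono-ADP-ribosyltransferase, was at 13.44 cRPKM in the empty vector, 13.81 in MSI1, 27.02 in SRRM3 and 30.74 in SRRM4, a ratio of 2.29 (2.18 to 2.40, from 2341 and 5201 reads). BEX1 was at 34.62, 39.43, 109.34 and 74.64 cRPKM, a ratio of 2.16 (2.03 to 2.29). Its neighbour in the family, BEX2, had 16.97 cRPKM in the control and 15.38 after SRRM4 induction. BEX1 and BEX2 are similar in sequence, and how reads were divided between them is uncertain.

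**Figure D3:**
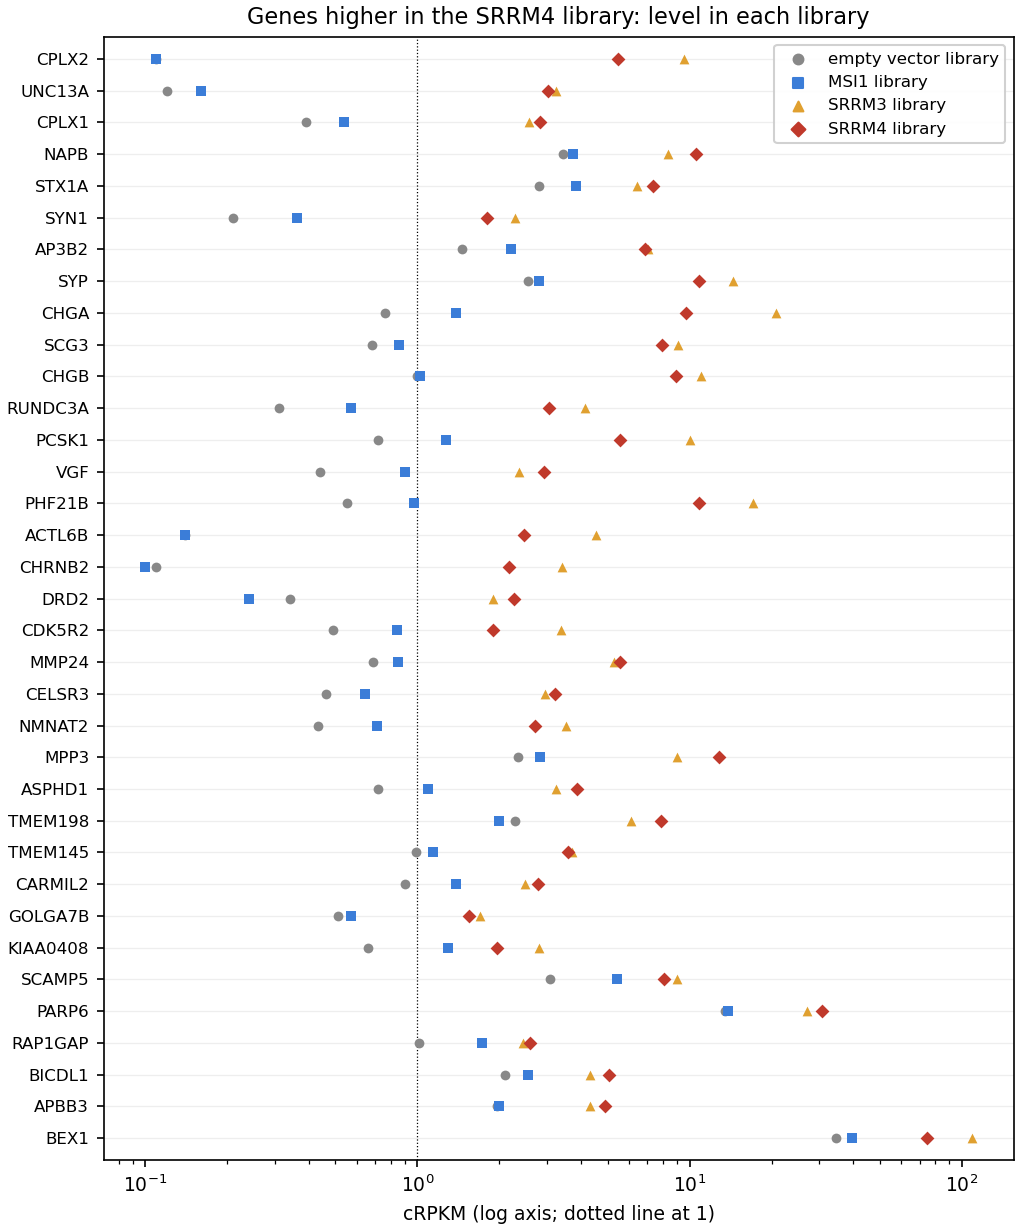
Level of each of the 35 higher protein-coding genes in the empty vector (grey circles), MSI1 (blue squares), SRRM3 (orange triangles) and SRRM4 (red diamonds) on a log cRPKM axis, with a dotted line at 1 cRPKM. Rows run from vesicle and granule genes at the top to genes outside the lists, ending with BEX1. Each row has the empty vector and MSI1 on the left and both SRRM libraries on the right; CHGA has SRRM3 far right of SRRM4, and MPP3 the reverse.

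The MSI1 library served as a second comparison, with the limit that MSI1 is itself an RNA-binding protein. The same SRRM4 library also enters both ratios. The 35 higher protein-coding genes were chosen for high levels in that SRRM4 library, which favours ratios above 1 over MSI1 too. Their counts over MSI1 are therefore not independent evidence, and no share of all compared genes over MSI1 is given beside them. All 35 higher protein-coding genes had an interval above 1 over MSI1, and 26 of them passed the full rule. The 9 that did not were RAP1GAP, STX1A, BEX1, BICDL1, GOLGA7B, CARMIL2, CDK5R2, KIAA0408 and SCAMP5. KIAA0408, for example, was at 1.30 cRPKM in MSI1 against 0.66 in the empty vector, and its ratio was 2.96 over the empty vector and 1.51 over MSI1.

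At the edge of the level filter, SYN1, GOLGA7B and CHRNB2 were just inside, and XKR7, CCDC92B and SYT4 just outside. XKR7 was at 0.06 cRPKM with the empty vector and 1.90 with SRRM4, a ratio of 34.1, SYT4 (synaptotagmin 4) at 0.06 and 1.68, a ratio of 26.5, and CCDC92B at 0.23 and 1.60, a ratio of 7.11. Among the 27543 genes under the filter, 8 had an interval wholly below 1 by a 2-fold margin and 51 had one wholly above 2-fold. Of these 51, 44 were protein-coding. They included the potassium channel KCNK3 (ratio 6.79), the calcium channel CACNA1B (3.82), the splicing regulator CELF3 (10.7) and the vesicle GTPase RAB3C (6.07). Each of these stayed at or under 0.54 cRPKM in SRRM4. PRMT8 and NSG2 had no read in the empty vector and 30 and 25 in SRRM4.

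Differences smaller than 2-fold on the log2 scale but with an interval wholly above 1.5-fold were seen for 27 protein-coding genes (0.234%). OGDHL, whose promoter holds the exact RE1 core, was at 0.55 cRPKM with the empty vector and 1.57 with SRRM4, a read ratio of 2.85. The adhesion molecule L1CAM was at 0.69 and 1.86 cRPKM, and the intermediate filament INA at 12.61 and 22.01. CCN2, a matricellular protein, was at 16.94 cRPKM in the empty vector, 9.27 in MSI1, 3.31 in SRRM3 and 30.52 in SRRM4, a ratio of 1.80 (1.71 to 1.89). CCN2 was higher in SRRM4 than in each of the other libraries. In the other direction, 11 protein-coding genes (0.0953%) had an interval wholly below 1 by the same 1.5-fold margin, among them the interferon-induced ISG15, IFI6 and RIGI. TSPAN6, a tetraspanin, was at 54.58 cRPKM in the empty vector, 48.61 in MSI1, 40.08 in SRRM3 and 32.59 in SRRM4, a ratio of 0.597 (0.575 to 0.620). The extracellular matrix protein fibrillin 2 (FBN2) was at 32.48, 24.84, 25.45 and 19.89 cRPKM, a ratio of 0.612, and the metal transporter SLC39A8 at 16.75, 16.70, 10.58 and 10.01, a ratio of 0.598. All 3 were lowest in SRRM4.

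On the lower side, the 4 protein-coding genes were all interferon effectors. IFIT1, which binds viral RNA lacking a host cap, was at 12.54 cRPKM in the empty vector, 1.51 in MSI1, 12.30 in SRRM3 and 3.25 in SRRM4. The empty vector and SRRM3 were alike and high, SRRM4 was low and MSI1 lower still, and the ratio of SRRM4 to the empty vector was 0.259 (0.229 to 0.292). IFIT3 was at 4.80, 0.97, 3.99 and 1.44 cRPKM, a ratio of 0.300, and IFIT2 at 2.79, 0.34, 2.28 and 0.89, a ratio of 0.318. IFITM1, a membrane protein that restricts viral entry, was at 3.02, 0.40, 5.45 and 1.24 cRPKM, a ratio of 0.409 (0.288 to 0.571, from 126 and 50 reads). Against MSI1 the same genes were higher in SRRM4, with ratios of 2.15 for IFIT1, 1.49 for IFIT3, 2.60 for IFIT2 and 3.07 for IFITM1, so their direction depended on which library served as control. IFIT genes resemble each other in sequence, as do IFITM genes, and the split of reads within each family is uncertain.

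The rest of the effector list leaned the same way over the empty vector. Of 36 members, all with a read, 21 were compared, 4 were lower and none was higher, and the median log2 ratio was -0.24. Intervals lay below 1 for 29 of the 36 and above 1 for 1, LY6E, against 14.5% and 13.7% of all genes with a read. ISG15, a ubiquitin-like modifier, was at 10.46 cRPKM in the empty vector, 5.01 in MSI1, 14.43 in SRRM3 and 5.44 in SRRM4, a ratio of 0.520, and IFI6 was at 17.21, 6.15, 24.83 and 9.40, a ratio of 0.547. Abundant members such as HERC5 and IFITM2 had ratios of 0.992 and 0.976. The largest reductions were in genes under the level filter. RSAD2 (viperin) had 101 reads in the empty vector and 6 in SRRM4, a ratio of 0.0612 (0.0219 to 0.138), OAS2 had 51 and 2, IFI44 40 and 2, IFI44L 79 and 15, TRIM22 22 and 3, and MX2 18 and 2. In the MSI1 library OAS2, IFI44 and MX2 were listed at 0 cRPKM. Over MSI1 the list's median log2 ratio was 0.05.

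**Figure D4:**
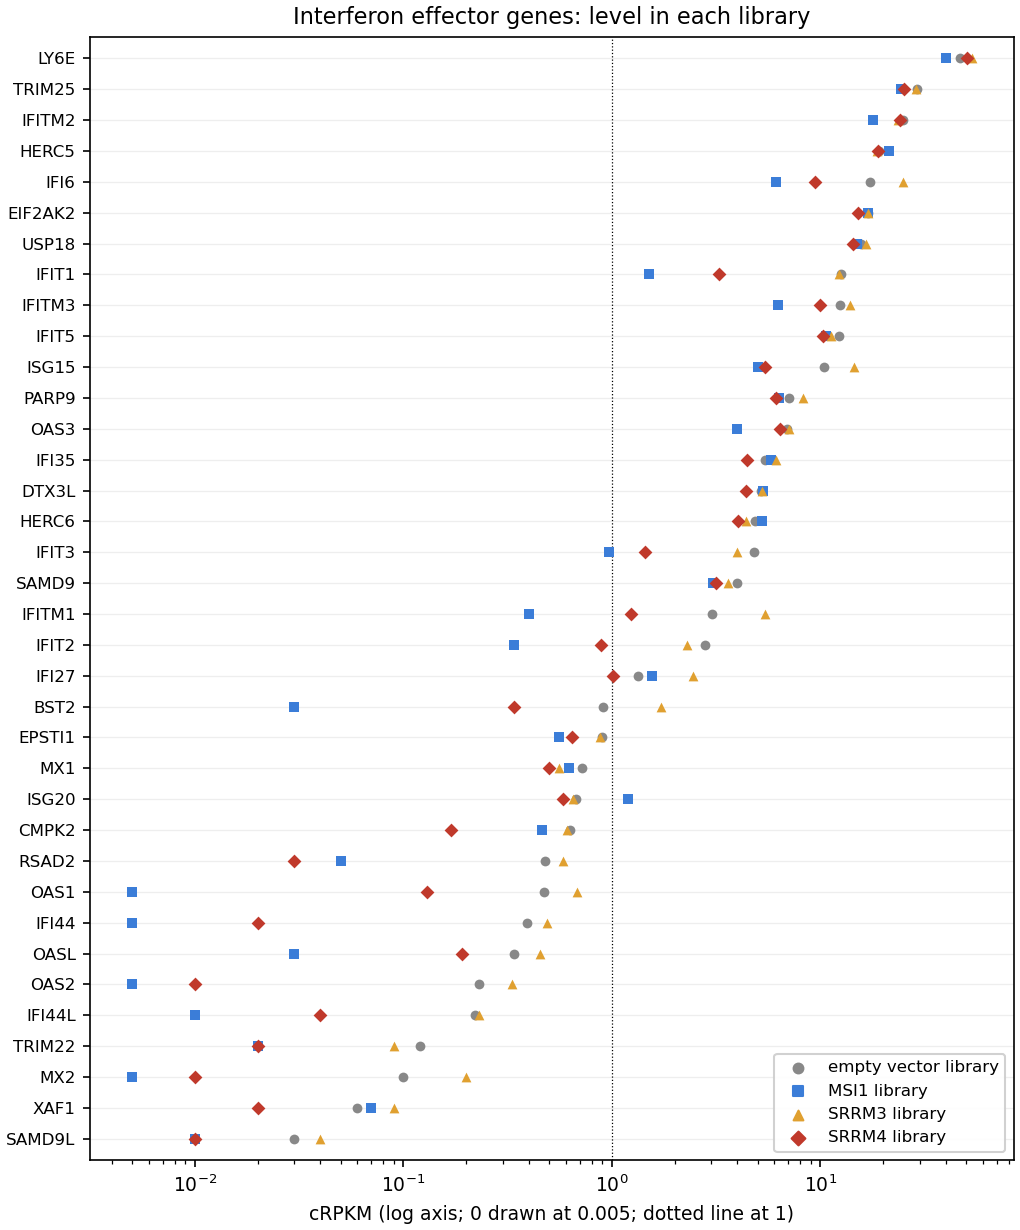
Level of each of the 36 interferon effector genes in the 4 libraries on a log cRPKM axis, ordered by the empty vector, with values of 0 drawn at 0.005. In the upper rows the symbols overlap; for IFIT1, IFIT2, IFIT3, IFITM1, ISG15, IFI6 and most rows under 1 cRPKM, SRRM4 (red diamonds) and MSI1 (blue squares) lie left of the empty vector (grey circles) and SRRM3 (orange triangles).

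Promoters of this list were searched on both strands for the core of the interferon-stimulated response element, which is GAAA, any 2 bases and GAAA. It was found in 21 of 28 list members with a RefSeq promoter (75%), against 3.62% of compared protein-coding genes and 4.38% of all genes with a promoter. Presence of the core did not mark the lower genes alone, since HERC5, EIF2AK2 and OAS3, with ratios from 0.898 to 0.992, hold it too. The stretches of 2 called genes, of ISG15 and of RSAD2 are shown with that of HERC5 for contrast; capitals mark the core, which reads as TTTC, any 2 bases and TTTC on the other strand. They are from GRCh38.p14, all on the plus strand, at chr10:89392492-89392531 (IFIT1), chr11:313985-314024 (IFITM1), chr1:1013369-1013408 (ISG15), chr2:6877617-6877656 (RSAD2) and chr4:88456979-88457018 (HERC5). The cores begin 116, 40, 113, 145 and 125 bases before the start site in that order.
IFIT1: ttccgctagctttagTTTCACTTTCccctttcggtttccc
IFITM1: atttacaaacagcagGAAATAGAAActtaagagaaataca
ISG15: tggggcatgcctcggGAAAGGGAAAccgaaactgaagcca
RSAD2: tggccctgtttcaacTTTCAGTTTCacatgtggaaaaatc
HERC5: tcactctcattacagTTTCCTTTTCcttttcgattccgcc

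Upstream of the effectors, none of 31 compared genes for interferon sensing and signalling passed the rule and their median log2 ratio was -0.01. The RNA sensor RIGI, itself induced by interferon, was the lowest at 4.40 cRPKM in the empty vector, 2.36 in MSI1, 4.0 in SRRM3 and 2.67 in SRRM4, a ratio of 0.606. The kinase JAK1 was at 35.71 and 26.57 cRPKM and IRF9 at 4.26 and 3.32. The receptor chains IFNAR1 and IFNAR2 had log2 ratios of -0.11 and 0.03, and IRF3 was highest at 0.30. IFI16, a DNA sensor, was at 21.23 and 14.19 cRPKM, a ratio of 0.669.

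Other programmes moved by less than 2-fold. None of 28 p53 targets passed the rule, but intervals lay below 1 for 23 of them and above 1 for none, against 25.1% and 23.2% of all compared genes, with a median of -0.21. CDKN1A was at 96.64 and 83.88 cRPKM and MDM2 at 31.07 and 24.80. Sterol synthesis and uptake genes had a median of -0.12 over 23 genes, with intervals below 1 for 17 and above 1 for 2. Their lowest member was INSIG1 at -0.41. YAP-responsive genes had a median of 0.21 over 19, led by CCN2, TNFRSF12A (0.49) and CCN1 (0.48), while ACTA2 had -0.36. Immediate early genes had a median of 0.08 over 22, led by EGR1 at 0.73. Cell cycle and ribosomal protein genes had medians of 0.05 and 0.01. Histone genes without polyA tails, whose presence in polyA libraries reflects RNA handling, had a median of -0.36 over 7 compared members, 4 of them with intervals below 1; their part in the results was not tested. REST targets and dense-core granules were the only 2 lists with a median past 0.5, and both medians shifted with the level filter. Over members with at least 1 cRPKM in the empty vector they were 0.43 and -0.02. Over members with a read in either library they were 0.70 and 0.20, and over those with at least 1 cRPKM in MSI1 0.60 and 0.03. The REST median thus stayed past 0.5 under 2 of these 3 choices, and the dense-core median under none.

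**Figure D5:**
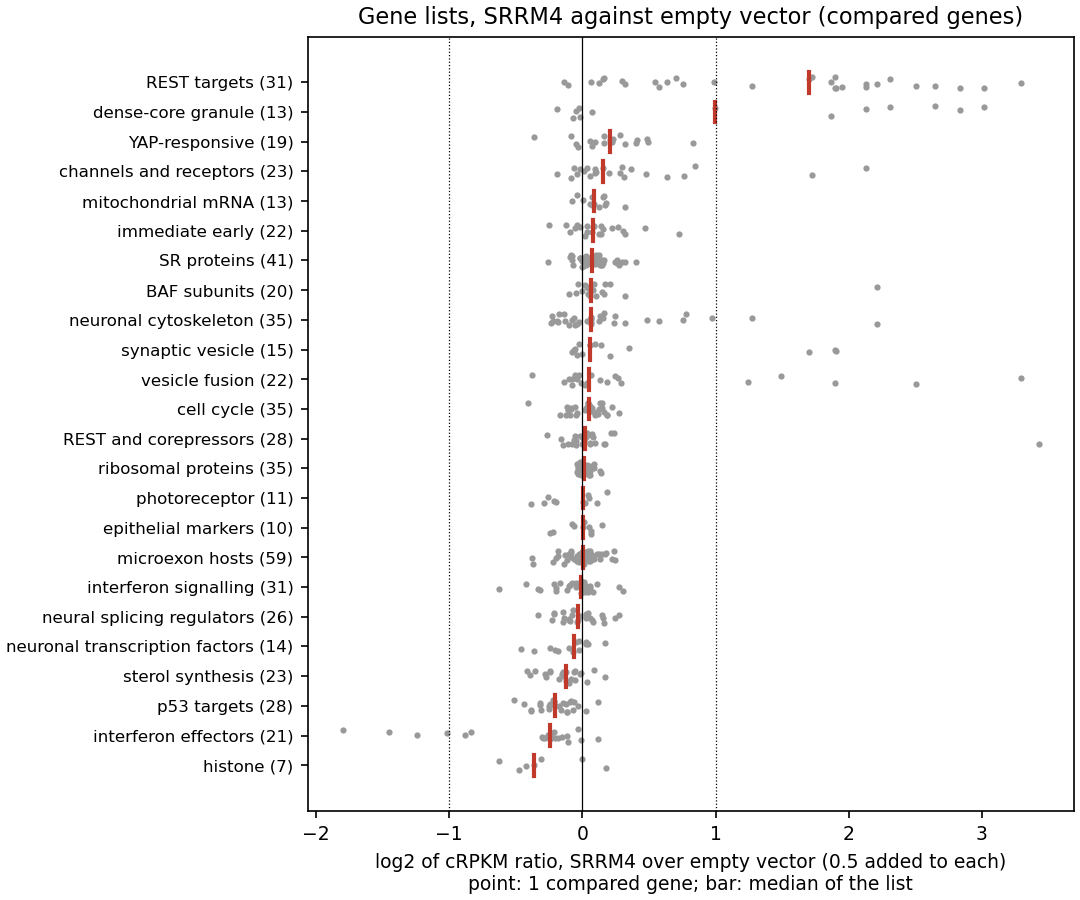
Log2 cRPKM ratio of SRRM4 to the empty vector for the compared members of 24 gene lists (number in parentheses), 1 grey point per gene, with a red bar at each list's median and dotted lines at 2-fold. REST targets and dense-core granule genes have medians of 1.70 and 0.99; in the vesicle fusion, synaptic vesicle and BAF lists a few points lie far to the right of a median near 0, and interferon effectors have a tail to the left.

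Splicing genes showed small differences. Among 41 serine/arginine-rich splicing factors, cofactors and their kinases, none passed the rule, and intervals lay above 1 for 23 and below 1 for 4, against 23.2% and 25.1% of all compared genes, with a median of 0.07. The coactivator RBM39 was the highest at 81.76 cRPKM with the empty vector and 108.45 with SRRM4 (log2 ratio 0.41), followed by the kinase CLK2 at 0.32. SRSF9 was the lowest at -0.26. RNPS1 and SF1 were at 160.29 and 98.03 cRPKM in the control and 193.61 and 116.53 in SRRM4. Among 26 regulators of neural splicing, PTBP1, which represses neural exons, had a log2 ratio of 0.16, RBFOX2 -0.21 and MBNL3 -0.33. Host genes of microexons had a median of 0.00 over 59 compared members, with CLASP2 at -0.37 and ANK2 at 0.25, and none passed the rule. None of 11 compared photoreceptor genes passed it, and CRX was at or under 0.02 cRPKM in every library.

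The remaining 11 called genes are non-coding and rest mostly on few reads or lie within other genes. AL031658.2 lies inside an intron of XKR7 on the same strand and was at 0.08 cRPKM with the empty vector and 2.59 with SRRM4, from 3 and 94 reads. AC006064.4 and AC093484.3 are antisense to GAPDH and UBB, which stood at 1770.21 and 705.49 cRPKM in the control. These values are uncertain, since the sources used here do not say whether counting used strand. SNORA14B and U4 lie within TOMM20 and PTMA, MT-TN had 0 and 7 reads, and AC015911.9 had 0 and 10. The lower ones were MIR25 (10 and 1 reads), AL589765.4 (31 and 11) and MIR663B (12 and 3). AC006538.1 had 213 and 495 reads.

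The higher protein-coding genes lay on 18 chromosomes. Within 1000 kb of the SRRM4 locus there were 14 protein-coding genes, of which 12 were compared. BICDL1, an adaptor of microtubule motors, was higher, at 2.10 cRPKM in the empty vector, 2.54 in MSI1, 4.30 in SRRM3 and 5.08 in SRRM4, a ratio of 2.42. It was also above the empty vector in the SRRM3 library, and the reason for its difference was not tested. The other 11 lay between log2 ratios of -0.10 and 0.16.

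Base composition moved with the comparison. With protein-coding genes split into 5 equal groups by transcript GC content, the median log2 ratio from the lowest to the highest group was -0.08, -0.05, -0.01, 0.04 and 0.09. In the same order, 1, 5, 3, 7 and 19 of the higher genes fell into these groups, and their median GC content was 58.9% against 47.9% for all compared protein-coding genes. After log2 ratios were centred on the median of their GC decile, 43 genes were higher and 41 of them were the same genes.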

How the data were processed

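RNA-seq of 4 HEK293 lines gave 1 library each (polyA-selected and stranded, per the labels). Each file, as deposited by the authors, lists an Ensembl gene ID, a corrected RPKM value (cRPKM) with 2 decimals and a read count in whole numbers. The build is given as GRCh38, also hg38, per the submitters' processing notes. Not given in the sources used here were the aligner, the counting tool, the annotation and any use of strand. Over 8811 genes the deposited RPKM equalled the count divided by library total and a gene constant to within 0.178%. Of 41614 genes listed, 1426 have no value. Symbols were found for 39941 of the other 40188, and coordinates come from GENCODE 29.

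The main measure was log2 of the cRPKM ratio with a pseudocount of 0.5, which understates differences of low genes, over genes with a mean of at least 1 cRPKM in the SRRM4 and empty-vector libraries. A call needed a log2 of at least 1 in size and an exact conditional (Clopper-Pearson) 95% interval of the depth-scaled count ratio that excluded 1. Ratios in the text are of depth-scaled counts unless log2 is named. A floor of 3 counts is 0.0483 CPM in the empty vector and 0.0498 in SRRM4. With 1 library per group no test across conditions was possible. The members and the 26 gene lists were chosen with earlier results of these data known. Genes are named if they are SRRM1 to SRRM4, REST or among up to 30 higher and 15 lower protein-coding calls ranked by the interval bound nearest 1. Also named are called list members, up to 4 members per list with the largest difference, members of lists described in full and neighbours of SRRM4; other genes named, all non-coding genes, and those under the filter or under 2-fold, were chosen after their values were seen. A few genes that this rule names are not reported here.

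Alternatives were other pseudocounts, filters, folds, scalings (edgeR TMM and median-of-ratios factors) and the MSI1 library as control; the filter on MSI1, the centring on GC content and the RE1 mismatch were added after seeing the data. The rule was checked on simulated counts. Software was edgeR 4.0.16 in R 4.3.3, with scipy 1.17.1, pandas 2.3.3, numpy 2.4.6 and matplotlib 3.10.9 in Python 3.11.15.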

Additional observations from a re-analysis of the deposited data

Results flagged for a closer look

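These genes moved in opposite directions over the empty vector in SRRM4 and in another library, with both counting intervals excluding 1. With 1 library per line the difference was not tested, and the comparisons share the empty-vector library. NPPB, a natriuretic peptide, had a ratio of 2.62 in SRRM4 and 0.318 in SRRM3. CCN2 had 1.80 in SRRM4, against 0.196 in SRRM3 and 0.547 in MSI1. EGR1, an immediate early transcription factor, had 1.80 in SRRM4 and 0.640 in SRRM3. IFITM1 had 0.409 in SRRM4 and 1.80 in SRRM3. GABRD had 2.40 in SRRM4 and 0.649 in MSI1. SPAG6 had 0.659 in SRRM4 and 1.72 in MSI1, and C11orf96 had 0.650 and 1.89.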

How the results depend on the processing

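The count of higher genes (43) was 24 with a pseudocount of 2, 10 with a mean of at least 5 cRPKM, 93 with a 1.5-fold rule, 70 without the interval and 25 with at least 1 cRPKM in MSI1; under the other 9 alternatives it was between 35 and 57. The count of lower genes (7) was 2 with a pseudocount of 2, 1 with a mean of at least 5 cRPKM, 3 with TMM, 3 with median-of-ratios factors, 30 with a 1.5-fold rule, 29 without the interval, 3 with the bound itself past 2-fold, 4 for protein-coding genes, 4 with at least 1 cRPKM in MSI1 and 31 with MSI1 as control, none of them among the 7. Over MSI1 the log2 ratios of IFIT1, IFIT2, IFIT3 and IFITM1 reversed to 0.90, 0.73, 0.40 and 0.95. With TMM, IFITM1 alone among 39 called protein-coding genes left the rule, and with a pseudocount of 2, 17 did. Of the higher genes with a promoter, 4.17% held the exact RE1 core, against 0.0211% of compared protein-coding genes. Either arm alone, which is less than the core, was held by 33.3%, against 10.6%.

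The median of the REST list (1.70) was 2.05 and 0.79 with pseudocounts of 0.1 and 2, 0.70 without the filter, 0.54 with a mean of at least 5, 1.37 as a mean, 1.29 over MSI1, 2.01 with TMM and 0.60 with the MSI1 filter. In the same order the dense-core list (0.99) gave 1.29, 0.54, 0.20, -0.022 and 1.19, then 0.86 with TMM and 0.026 with the MSI1 filter. As means, vesicle fusion gave 0.49, synaptic vesicle 0.41, REST corepressors 0.13, BAF 0.18, channels 0.36, cytoskeleton 0.20 and interferon effectors -0.46. Over MSI1, synaptic vesicle gave -0.079, channels -0.033, cytoskeleton -0.096, neural splicing 0.091, interferon effectors 0.049, mitochondrial messenger RNAs -0.15, histones -0.073 and epithelial markers -0.22. Channels gave 0.024 without the filter and 0.034 with a mean of at least 5, and histones -0.018 without the filter. Each filter changes which members enter, and the TMM alternative also replaced length-corrected cRPKM by CPM. The cause of these shifts was otherwise not tested.

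No paired analysis was possible because each group is 1 library and the labels give no replicate numbers; for the same reason none was left out in turn. The reads limit genes under the filter, where a floor of 3 counts is about 0.05 CPM and intervals span several fold. Library preparation, line and transgene effects cannot be told apart, and gene-level values cannot show splicing.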
